A study of Mus musculus with 24 samples.

Results

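Ion channels of the developing mouse ear were followed through the genes for potassium, sodium and calcium channel subunits, taken as every row of the gene count table whose mouse symbol begins with Kcn, Scn or Cacn. The rule took 95 of 15736 genes, of which 62 begin with Kcn, 14 with Scn and 19 with Cacn. Of these rows, 93 encode channel subunits, and the others are Scnm1, a splicing factor named for its effect on a sodium channel transcript, and Kcnmb4os2, a noncoding transcript opposite Kcnmb4.

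Potassium channels let potassium leave the cell and hold or restore the resting voltage, sodium channels carry the rising phase of the action potential, and calcium channels couple voltage to secretion and transcription. Pore-forming subunits set what passes, and accessory subunits change gating, trafficking and surface density. In the ear, Kcnq1 with Kcne1 later secretes potassium into the endolymph, and Cacna1d carries the calcium current of hair cells.

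Otocyst epithelium, the wall of the vesicle that becomes the inner ear, was dissected from mouse embryos, and polyadenylated RNA was sequenced with a stranded kit. Both genotypes carried Rosa26rtTA/+, which makes the doxycycline-dependent activator under a locus active in most cells, and both had mothers given doxycycline by injection (1.5 mg/kg) and in chow (200 mg/kg). Control pools (con) carried no other transgene, and experimental pools (R2b) also carried Tg(tetO-s(dn)Fgfr2b)/+, which encodes a secreted, dominant-negative FGFR2b ectodomain that binds the ligands of this receptor. Ear tissue of several embryos was pooled by genotype within each pregnant female, so the litter gave 1 con and 1 R2b pool and is the replicate.

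Doxycycline was started at E9.75 for 12 hours (E9.75+12h), at E9.25 for 24 hours (E9.25+24h) or at E10.25 for 24 hours (E10.25+24h). The first 2 exposures end at the same stage, and the E10.25 exposure ends a day later. Counts were at hand for 3 litters of E9.75+12h and 4 litters of each other exposure, 22 libraries in all, with 18676615 to 28241583 counts each. The titles number the libraries of each exposure as a separate series, so levels at different exposures cannot be told apart from that numbering, and each exposure was tested within itself.

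The transgene checks the labels. Reads of Ighg1, whose Fc sequence is part of the decoy, were at most 1.89 CPM (counts relative to the TMM-scaled library size) in every con pool of the 2 early exposures and at least 996 CPM in every R2b pool there. At E10.25+24h the library labelled con of litter 1 held 701 CPM and the library labelled R2b of that litter 56.3 CPM, which goes against both labels. The library labelled con of litter 3 held 207 CPM, and the other con pools of that exposure 1.46 and 0.762 CPM. Defining otic genes were present in every pool, with a summed level of Pax2, Pax8, Oc90 and 9 others between 2444 and 8477 CPM.

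Stretches of 250 bases before a start site are shown for genes the results turn on, from RefSeq's annotation of GRCm38.p6, read 5′ to 3′ along the gene. Kcnh2 and Scnn1b rose at both early exposures. Kcnc1 passed for a slope on the mean of Neurog1 and Tubb3, given below, and did not pass on Neurog1 alone. Cacna1d and Kcnip4 also rose at both early exposures, and their windows hold an E-box, in capitals. The capitals in Kcnip4 read CATCTG, the reverse complement of CAGATG, and those in Cacna1d read CAGCTG. The Kcnh2, Cacna1d and Kcnip4 windows each precede an internal start of the gene.
Kcnh2, chr5:24329592-24329841, minus strand: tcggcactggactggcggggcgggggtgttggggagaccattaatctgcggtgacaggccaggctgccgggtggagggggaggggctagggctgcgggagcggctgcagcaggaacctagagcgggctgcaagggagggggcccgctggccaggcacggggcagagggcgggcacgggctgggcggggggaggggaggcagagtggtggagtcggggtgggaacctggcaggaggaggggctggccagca
Scnn1b, chr7:121864788-121865037, plus strand: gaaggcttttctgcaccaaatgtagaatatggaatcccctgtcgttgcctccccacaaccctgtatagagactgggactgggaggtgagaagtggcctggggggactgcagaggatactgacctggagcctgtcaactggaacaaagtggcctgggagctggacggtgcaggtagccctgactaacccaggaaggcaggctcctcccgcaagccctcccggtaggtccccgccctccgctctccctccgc
Kcnc1, chr7:46396218-46396467, plus strand: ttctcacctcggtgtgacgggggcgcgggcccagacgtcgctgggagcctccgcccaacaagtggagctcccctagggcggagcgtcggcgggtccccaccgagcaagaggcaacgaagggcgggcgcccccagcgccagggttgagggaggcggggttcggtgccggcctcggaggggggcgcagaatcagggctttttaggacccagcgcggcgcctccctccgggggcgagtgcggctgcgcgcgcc
Cacna1d, chr14:30353487-30353736, minus strand: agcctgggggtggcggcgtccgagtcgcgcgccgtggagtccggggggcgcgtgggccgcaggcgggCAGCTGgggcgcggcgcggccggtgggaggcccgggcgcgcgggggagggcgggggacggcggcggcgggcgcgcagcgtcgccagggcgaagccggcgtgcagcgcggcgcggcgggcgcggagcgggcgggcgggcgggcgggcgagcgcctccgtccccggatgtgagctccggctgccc
Kcnip4, chr5:49285660-49285909, minus strand: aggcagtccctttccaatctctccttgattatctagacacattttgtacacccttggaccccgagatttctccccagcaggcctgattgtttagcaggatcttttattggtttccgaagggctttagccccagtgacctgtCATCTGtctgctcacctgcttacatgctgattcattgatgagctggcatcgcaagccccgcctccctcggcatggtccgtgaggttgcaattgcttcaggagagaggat

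Promoter windows were matched by symbol for 67 of the 95 genes, with 98 start sites. Motifs were searched on both strands in the 250 bases before each start. The E-box CAGATG, a form bound by proneural factors such as NEUROG1, was in 12.2% of the channel start sites and 14.4% of all 32851 start sites. The palindromic E-box CAGCTG was in 22.4% of the channel start sites, against 13.0% of all. Among 21 start sites of the 13 matched genes called higher at either early exposure, 8 (38.1%) held CAGCTG, and the 4 genes were Cacna1d, Kcna2, Kcnc2 and Kcnn1. Among 10 start sites of the 7 matched genes called higher at both, 2 (20.0%) did, those of Cacna1d and Kcna2. The ETS motif CCGGAAG was in 6.91% of all start sites and in 1.02% of the channel start sites, 1 start of Kcnk2. TTCAGCACC, the first bases of the element bound by the neuronal repressor REST, was in 0.301% of all and in 1.02% of the channel start sites, 1 start of Kcnh6. Start sites of 1 gene share sequence, so these shares are descriptions.

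Base composition differed over the windows. The median number of CpG was 8 over the channel start sites and 6 over all start sites, and the Cacna1d window above held 50, the Kcnc1 window 30 and the Scnn1b window 7. The E-box of Cacna1d begins 183 bases and that of Kcnip4 109 bases before the start.

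The channel genes as a group were a small part of the transcriptome, with 0.0605% to 0.109% of each library's counts. Per kilobase of exon, the median channel gene stood at 0.565 CPM per kb over the 22 libraries. Cacnb3, a cytoplasmic subunit that carries calcium channels to the membrane, was the most abundant at 31.9 CPM per kb. Kcnk1, a potassium leak channel of the tandem-pore family, followed at 26.0 and Cacng7, of the family of calcium channel gamma and AMPA receptor subunits, at 24.3 CPM per kb.

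Among pore subunits of calcium channels, the low-voltage-activated Cacna1h had the highest level per length, 7.04 CPM per kb, against 3.28 for the N-type Cacna1b. The BK channel subunit Kcnmb4 stood at 7.05 CPM per kb. Every voltage-gated potassium channel gene was below these, with Kcnh2 highest at 3.25 CPM per kb. In con pools Cacng7 was at 37.9 ± 4.27 CPM per kb (SD, n = 3) at E9.75+12h, 15.1 ± 1.24 (SD, n = 4) with E9.25+24h, and 25.2 ± 2.95 (SD, n = 4) at E10.25+24h. The order of Cacnb3 and Kcnk1 was not the same at each exposure, since con pools of E9.25+24h gave 24.4 ± 3.26 and 24.8 ± 5.28 CPM per kb, a difference within the spread.

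**Figure D1:**
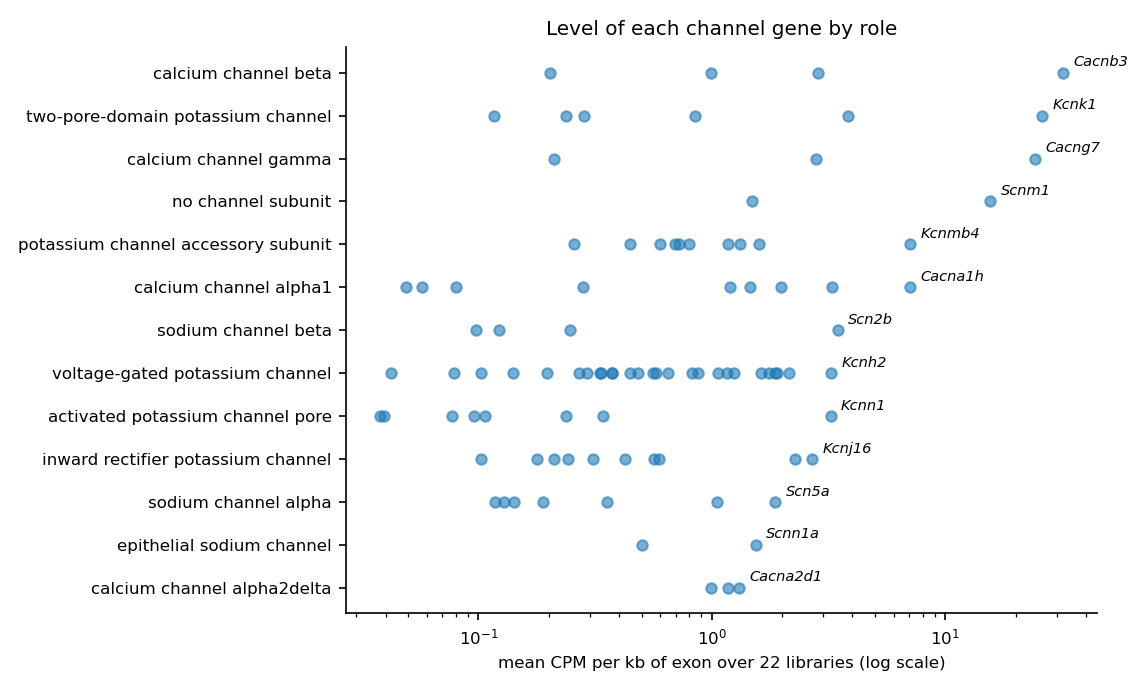
Mean CPM per kilobase of exon over 22 libraries, on a log scale, for each of the 95 genes in rows by role, with the highest of each row named. Cacnb3, Kcnk1 and Cacng7 stand at 24.3 to 31.9 CPM per kb, and the median gene at 0.565.

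The E9.75+12h comparison asked what 12 hours of the decoy did to these genes. Expression of 18 channel genes was higher in R2b pools and of none lower, among the 83 that passed the filter on low counts (21.7%). Over all 14882 genes tested, 10.20% were called higher and 9.78% lower (20.0% together) by edgeR's quasi-likelihood test at an adjusted p (Benjamini-Hochberg over all genes) under 0.05, and that is the rule behind every call here. The median log2 fold change was 0.33 over the 83 and 0.01 over all genes. The 12 genes that did not pass included Cacna1s, Kcnj4, Kcnj13, Kcnj14, Kcnj15, Kcnk13, Kcnn3, Kcnn4, Scn3b and Scn4b. A gene can pass the filter through the group where it is high, so these counts describe the genes that passed and not all 95.

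The voltage-gated potassium channels held 9 of the 18 calls, from 26 genes tested. Kcnc1 (Kv3.1), a fast delayed rectifier of neurons that fire at high rates, was at 3.55, 3.46 and 3.10 CPM in con and 11.6, 9.87 and 9.44 CPM in R2b pools of litters 1, 2 and 3. Each R2b pool was thus above each con pool, and the log2 fold change was 1.62 (SE 0.185, edgeR adjusted p = 0.000557). Kcnh2 (ERG), the rapid delayed rectifier also known from the heart, read 9.69, 10.5 and 11.7 CPM in con and 26.7, 18.6 and 29.5 CPM in R2b. Its groups did not overlap, and the log2 fold change was 1.24 (SE 0.182, edgeR adjusted p = 0.00149).

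Kcnq1 (KvLQT1) read 2.74, 2.31 and 3.63 CPM in con and 6.63, 4.86 and 7.03 CPM in R2b pools. Its partner Kcne1 (minK), an accessory subunit that slows Kcnq1 gating, read 4.62, 4.83 and 4.20 CPM in con and 8.59, 8.67 and 9.70 CPM in R2b. Both members of the pair thus rose without overlap, by 1.10 (SE 0.248, edgeR adjusted p = 0.0112) and 0.99 (SE 0.176, edgeR adjusted p = 0.00377) on the log2 scale. Kcnq1 holds the antisense transcript Kcnq1ot1 within it, and whether the counting used strand is not given in the sources used here, so reads of the 2 could not be told apart.

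Kcna2 (Kv1.2), a low-threshold channel of axons, read 4.87, 9.17 and 6.20 CPM in con and 12.2, 14.2 and 12.2 CPM in R2b, a log2 fold change of 0.94 (SE 0.221, edgeR adjusted p = 0.0134). Kcns3, a silent subunit that works only with Kcnb partners, read 1.17, 1.10 and 0.420 CPM in con and 2.68, 2.37 and 2.36 CPM in R2b, a change of 1.47 (SE 0.376, edgeR adjusted p = 0.0197). The groups of both genes were apart. Kcnd2, the pore of an A-type current, read 4.06, 2.14 and 2.73 CPM in con and 6.67, 6.02 and 5.39 CPM in R2b. Kcnip4, a calcium-binding partner of Kcnd channels, read 1.22, 0.989 and 0.420 CPM in con and 2.89, 2.41 and 2.10 CPM in R2b. For this pore and partner the log2 fold changes were 1.02 (SE 0.256) and 1.50 (SE 0.383), with edgeR adjusted p of 0.0179 and 0.0196, and no R2b pool was as low as a con pool.

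The epithelial sodium channel had the largest change. Scnn1b, the beta subunit of this amiloride-sensitive channel, read 0.710, 0.385 and 0.315 CPM in con and 2.55, 2.25 and 2.67 CPM in R2b, from 6 to 14 counts and 52 to 60 counts per library. The log2 fold change of 2.39 (SE 0.378, edgeR adjusted p = 0.002) stood well beyond the spread of either group. Scnn1a, the alpha subunit, changed by 0.56. The sodium-activated potassium channel Kcnt1 read 0.203, 0.220 and 0.158 CPM in con and 0.893, 1.13 and 0.872 CPM in R2b. It rose by 2.30 (SE 0.454, edgeR adjusted p = 0.00599) on 3 to 4 counts per con library, and its groups were apart.

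Other called genes, all with every R2b pool above every con pool, had log2 fold changes of 0.99 for Scn4a, the sodium channel of skeletal muscle, 0.85 for Kcnd1, 0.67 for Cacna1d, 0.53 for the P/Q-type Cacna1a, 0.51 for Kcnh8 and 0.45 for Kcnn1. No inward rectifier (6 tested), tandem-pore channel (5), sodium channel beta (1) or calcium channel alpha2delta, beta or gamma gene (10 together) passed the test. Of the 83 genes, 26 had every R2b pool above every con pool and 4 every R2b pool below, against 19.2% and 20.0% of all genes. Cacna1e, Cacnb2 and Kcnk2 were among the latter, and none of them passed the test, with log2 fold changes from -1.18 to -0.16.

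Neuroblast genes moved in the same pools. Neurog1, the factor that specifies otic neuroblasts, rose from 27.1 ± 0.848 to 46.3 ± 4.68 CPM (SD, n = 3), and Tubb3, a tubulin of young neurons, from 67.5 ± 13.2 to 136 ± 17.7 CPM. Of 13 otic neuroblast genes, 8 were called higher. Their summed level was 353 to 395 CPM in con and 545 to 612 CPM in R2b, and their part in the channel results was followed across litters, with the values given after the 3 exposures. Of 12 otic epithelium genes 6 were called higher and 1 lower, and of 10 mesenchyme genes 2 higher. In bulk tissue more cells of a type and more RNA per cell cannot be told apart.

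The calls rested on few litters. Kcnc1 and Scnn1b passed with each litter left out in turn, and the other 16 did not pass without litter 1, where 2 of 84 channel genes and 2.92% of all genes were called. The con pool of litter 1 held 789 CPM of blood genes, against 21.9 and 287 CPM in the other con pools and 93.6 to 118 CPM in R2b. Mitochondrial genes took 6.69% of its counts and 4.00% of those of its R2b pool. Their part in the calls was not tested. With litter as a block 10 of the 18 stayed called, and the 8 that did not included Cacna1a, Cacna1d, Kcnd1, Kcnh8, Kcnn1, Scn4a and Scnn1a, while 11.9% of all genes were called and 5.79% called higher.

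The earlier start, E9.25+24h, put the same question to an exposure of 24 hours. Of 83 genes that passed the filter, 12 were called higher and 2 lower in R2b (16.9% together), against 9.09% and 6.50% (15.6% together) of the 14979 genes tested. The median log2 fold change was 0.02 over the 83 and -0.01 over all genes. Genes that did not pass included Cacna1s, Cacng8, Kcnj13, Kcnj15, Kcnk13, Kcnn3, Kcnn4, Kcnt1, Kcnu1, Scn3b and Scn4b.

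Kcnh2 again stood apart, at 13.9, 11.2, 11.2 and 12.2 CPM in con and 21.04, 24.9, 25.6 and 22.4 CPM in R2b pools of litters 1 to 4. The log2 fold change was 0.95 (SE 0.102, edgeR adjusted p = 0.00123) and the groups did not overlap. Kcns3 read 1.34, 1.29, 1.12 and 0.783 CPM in con and 3.86, 3.60, 3.21 and 3.60 CPM in R2b, a change of 1.65 (SE 0.200, edgeR adjusted p = 0.00199). Kcna2 read 6.17, 5.26, 7.18 and 5.16 CPM in con and 12.2, 12.8, 12.4 and 11.1 CPM in R2b, a change of 1.03 (SE 0.130, edgeR adjusted p = 0.00219). In both genes the lowest R2b pool was well above the highest con pool.

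Scnn1b read 0.431, 0.348, 0.319 and 0.184 CPM in con and 2.21, 1.95, 1.47 and 1.23 CPM in R2b. Its log2 fold change of 2.40 (SE 0.313, edgeR adjusted p = 0.00252) was the largest among the called genes. Scnn1a, its partner, read 4.49 ± 0.483 CPM in con and 5.10 ± 0.967 CPM in R2b (SD, n = 4) and did not pass (edgeR adjusted p = 0.492).

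Kcnq1 read 2.39, 2.28, 1.86 and 2.67 CPM in con and 4.05, 3.84, 3.92 and 3.79 CPM in R2b. Kcne1 read 3.40, 4.22, 2.55 and 2.16 CPM in con and 6.21, 7.98, 4.90 and 5.11 CPM in R2b. The pair rose together again, by 0.76 (SE 0.153, edgeR adjusted p = 0.0147) and 0.97 (SE 0.246, edgeR adjusted p = 0.0314), with no overlap in either gene. Kcnip4 read 0.191, 0.397, 0.319 and 0.138 CPM in con and 0.800, 2.33, 0.668 and 0.899 CPM in R2b, on 3 to 8 counts per con library, and its R2b pool of litter 2 was far above the other 3.

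Calcium channels moved both ways. Cacna1a, which triggers transmitter release at many synapses, read 12.0, 11.8, 10.4 and 11.1 CPM in con and 17.1, 17.6, 18.1 and 16.1 CPM in R2b, a change of 0.61 (SE 0.0834, edgeR adjusted p = 0.00331). Cacng7 read 34.3, 37.1, 35.2 and 41.1 CPM in con and 23.7, 27.5, 24.9 and 29.3 CPM in R2b, and fell by 0.49 (SE 0.0901, edgeR adjusted p = 0.0111). The R-type channel Cacna1e read 1.10, 0.894, 0.904 and 1.61 CPM in con and 0.518, 0.146, 0.223 and 0.426 CPM in R2b, and fell by 1.77 (SE 0.395, edgeR adjusted p = 0.0207). In each of these 3 genes con and R2b were fully apart.

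The neuronal sodium channel Scn2a read 1.53, 1.59, 1.54 and 2.12 CPM in con and 2.87, 3.11, 2.67 and 2.79 CPM in R2b, a change of 0.75 (SE 0.171, edgeR adjusted p = 0.0215). The remaining called genes were Kcnip4 with a log2 fold change of 2.15, Scn4a with 1.09, Kcnc2 with 0.92 and Cacna1d with 0.73. Kcnc2 is a Kv3 channel like Kcnc1. By role, 5 of 27 voltage-gated potassium channels, 2 of 7 sodium channel pores and 2 of 8 calcium channel pores were called higher, and no inward rectifier (8 tested) or tandem-pore channel (5) in either direction. Groups were apart with R2b above for 13 genes and below for 2, against 12.1% and 10.23% of all genes.

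Neuroblast genes did not follow at this exposure. Neurog1 was 17.2 ± 5.54 CPM in con and 22.5 ± 2.03 CPM in R2b (SD, n = 4, edgeR adjusted p = 0.203), and Tubb3 was 71.8 ± 32.4 and 64.3 ± 3.70 CPM (edgeR adjusted p = 0.703). None of 13 neuroblast genes was called, and their summed level was 263 to 553 CPM in con and 295 to 312 CPM in R2b. Of 12 otic epithelium genes 3 were called higher and 2 lower, and of 10 mesenchyme genes none was called. Of the 4 neural crest and glia genes tested, 2 were called higher. Litter 4 differed from the rest in both pools, with 1287 CPM of mesenchyme genes in con and 1214 CPM in R2b against 52.3 to 450 CPM in the other pools of that exposure. The part of these cells in the channel results was not tested.

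Cacna1a, Kcna2, Kcnh2, Kcns3 and Scnn1b passed with each litter left out in turn, and the other 9 did not pass without litter 1, nor without litter 2, when 2.15% and 3.06% of all genes were called. With litter as a block all 14 stayed called and 28 channel genes passed, 23 higher and 5 lower, while 40.6% of all genes passed, 20.5% higher and 20.1% lower. Genes that passed only with the block included Kcnh5, Kcnd3 and Cacna2d3, higher by 1.27, 1.23 and 0.67, and Kcnc4, with a log2 fold change of -0.56. Without the con pool of litter 4, Cacna1d, Kcnc2, Kcne1, Kcnip4 and Scn4a no longer passed, with edgeR adjusted p from 0.0522 to 0.0661.

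Both early exposures called the same 10 genes higher, of 80 tested at both (12.5%), against 4.97% of all genes tested at both. These were Cacna1a, Cacna1d, Kcna2, Kcne1, Kcnh2, Kcnip4, Kcnq1, Kcns3, Scn4a and Scnn1b. No channel gene was called lower at both, against 3.89% of all genes. The 2 exposures share no sample. In the fit without a litter block, Kcnc1 passed at E9.75+12h and not at E9.25+24h. Its con pool of litter 4 at E9.25+24h stood at 7.27 CPM, beside 3.59, 2.78 and 3.30 in the other con pools. The R2b pools of that exposure read 5.51, 6.96, 8.15 and 6.72 CPM, and the difference gave an edgeR adjusted p of 0.143 with that con pool and 0.00829 without it. With litter as a block and all pools, Kcnc1 passed there too, by 0.74 (SE 0.222, edgeR adjusted p = 0.0234).

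**Figure D2:**
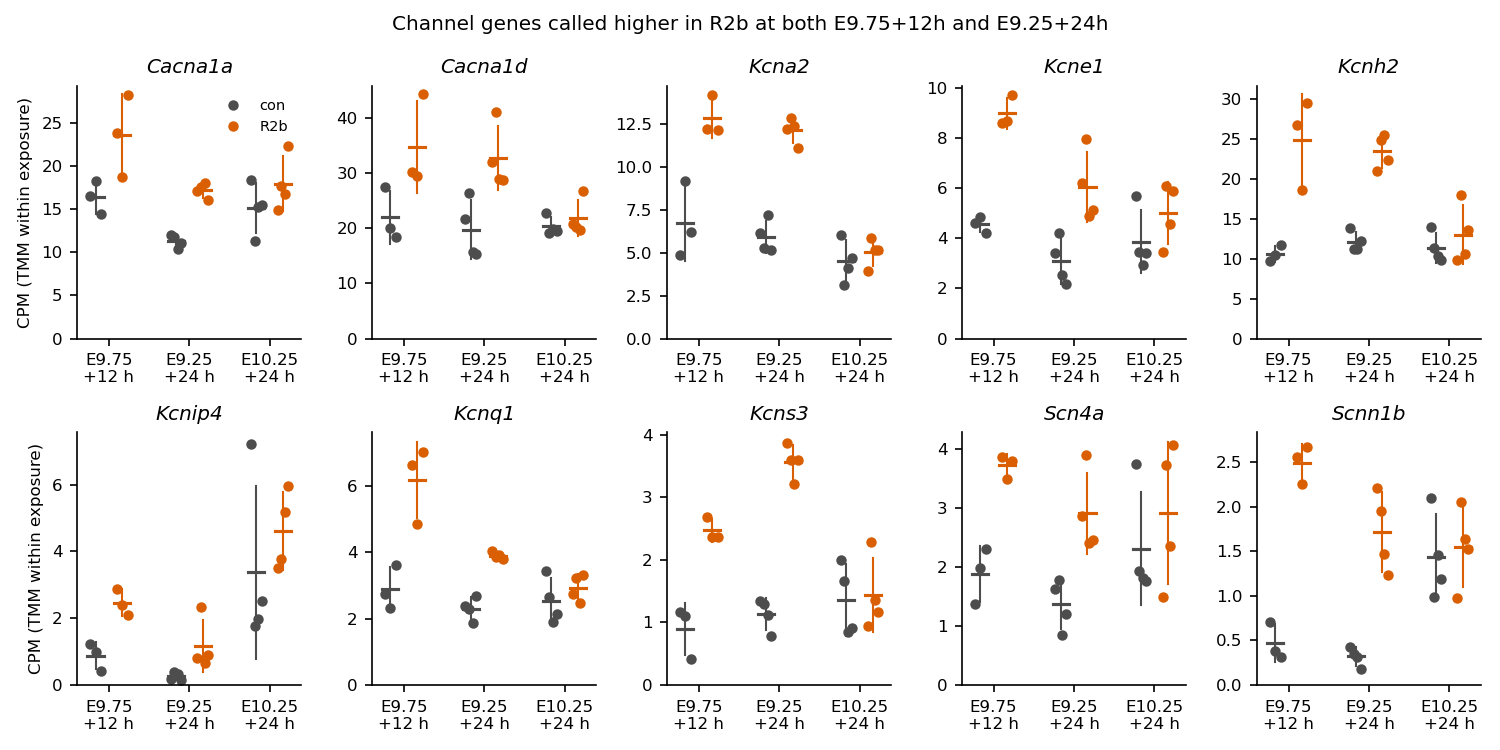
CPM of the 10 genes called higher at both early exposures, by exposure, with points for pools, horizontal bars for means and vertical bars for 1 SD (con grey, R2b orange; n = 3, 4 and 4). Every R2b pool stands above every con pool at the first 2 exposures, and the groups overlap at E10.25+24h.

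The change itself was compared between the early exposures in 1 fit over all libraries. No channel gene and none of 15688 genes differed (0%), with 6 channel genes at an unadjusted p under 0.05 (12.2% of all genes), and DESeq2 called 1, Cacng7. Kcnd2 had the widest gap of the 6, with a log2 fold change of 1.02 in the 12-hour exposure and -0.70 in the other, a difference of -1.71 (SE 0.578, edgeR adjusted p = 0.275). Called at 1 exposure and not at the other is therefore not a difference shown by this test.

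**Figure D3:**
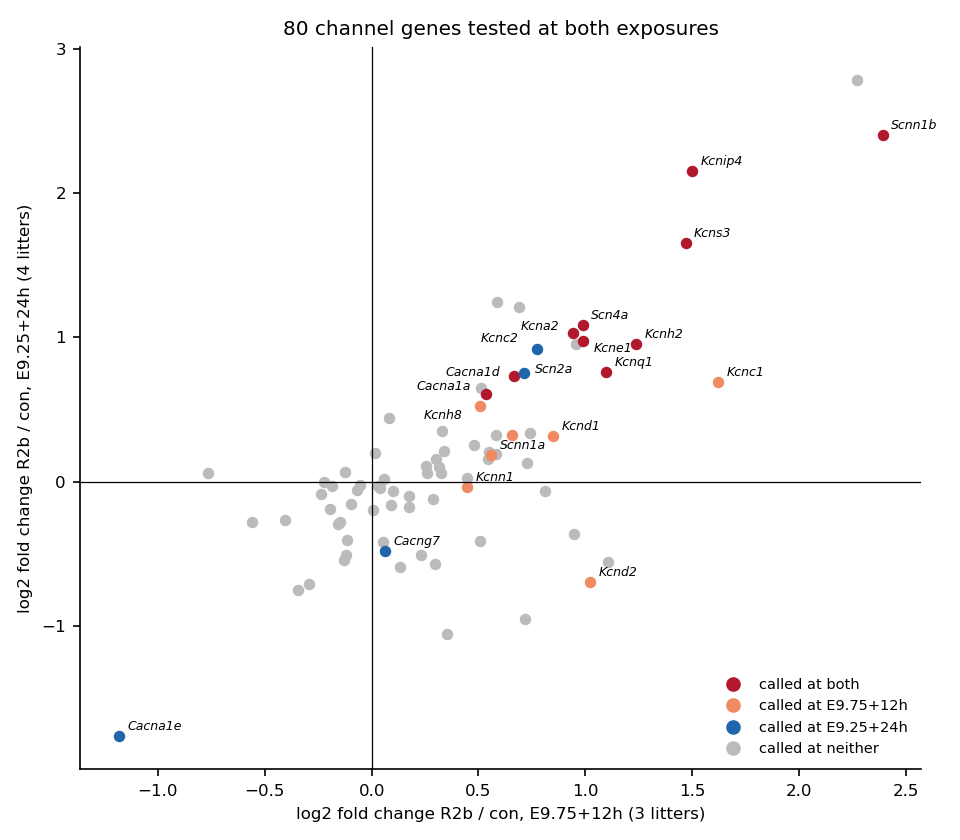
Log2 fold change of R2b over con at E9.75+12h (horizontal) and E9.25+24h (vertical) for the 80 genes tested at both, coloured by where they were called, with names for called genes that the text describes. The 10 called at both lie in the upper right, from 0.53 to 2.40, and Cacna1e is lowest at -1.18 and -1.77.

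Kcnab1, an accessory subunit of Kv1 channels, was singled out after its values were seen, since its changes were close in size to those of Scnn1b without a call in the fit with no litter block. It read 0.558, 0.220 and 2.31 CPM in con and 4.97, 8.98 and 0.872 CPM in R2b after 12 hours. With E9.25+24h it read 0.383, 0.447, 0.213 and 1.20 CPM in con and 1.22, 12.2, 1.16 and 1.23 CPM in R2b. R2b was above con in litters 1 and 2 and below it in litter 3 of the first, and in the second the R2b pool of litter 2 stood far above the rest. The log2 fold changes were 2.27 and 2.78 (edgeR adjusted p = 0.0618 and 0.0766). With litter as a block they were 2.23 (edgeR adjusted p = 0.200) and 2.33 (edgeR adjusted p = 0.0134), so Kcnab1 passed with E9.25+24h in that fit.

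E10.25+24h called no channel gene among 90 tested and no gene among 15203 (0%). At an unadjusted p under 0.05, 1 channel gene (Kcnh1) and 1.15% of all genes passed, and DESeq2 called 0. Con and R2b were apart for no channel gene, against 0.460% of genes with R2b above and 0.467% below. Kcnh2 read 14.0, 11.4, 10.32 and 9.86 CPM in libraries labelled con and 9.88, 18.0, 10.6 and 13.6 CPM in libraries labelled R2b. Scnn1b read 2.09, 0.990, 1.46 and 1.19 CPM in libraries labelled con and 0.973, 2.05, 1.64 and 1.52 CPM in those labelled R2b. In litter 1, where the transgene reads go against the labels, both genes ran opposite to the other 3 litters.

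Without litter 1, edgeR called 0 of 90 channel genes and 0 of 15195 genes. With litter as a block as well, 4 channel genes were called, all higher, and 2.79% of all genes were called higher. Kcnip4 read 1.77, 1.98 and 2.52 CPM in con and 3.78, 5.20 and 5.95 CPM in R2b pools of litters 2, 3 and 4, with a log2 fold change of 1.26 (SE 0.171, edgeR adjusted p = 0.024). Kcnc2 read 13.5, 11.8 and 14.8 CPM in con and 20.9, 16.6 and 20.9 CPM in R2b, a change of 0.56 (SE 0.0855, edgeR adjusted p = 0.0279). In both genes the 3 R2b pools were above the 3 con pools. Cacna2d3, an alpha2delta subunit that brings calcium channels to the membrane, changed by 0.47 and Kcne1 by 0.76, with edgeR adjusted p of 0.0436 and 0.0468. The library labelled con of litter 3 stayed in that fit with its 207 CPM of Ighg1.

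The change at E10.25+24h was set against that at E9.25+24h in the fit over all libraries. None of 95 channel genes and none of 15688 genes passed (0%), with 13 channel genes and 8.57% of all genes at an unadjusted p under 0.05. Scnn1b was nearest, with a difference of -2.30 (SE 0.441, edgeR adjusted p = 0.0733), and DESeq2 called 2, Cacna1e and Scnn1b. The fit held litter 1 of E10.25+24h, where transgene reads go against the labels. Scnn1b differed there by -1.04 log2 units, against 0.99, 0.16 and 0.33 in litters 2, 3 and 4. Shares of all genes called by DESeq2 are not reported here for either difference between exposures.

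Neuroblast content was followed across the litters in 2 ways, with the mean log2 CPM of Neurog1 and Tubb3 as the index. In the first, the index was centred within each of the 6 groups and fitted beside the 6 group means. That left out the contrast between the con and R2b labels. In the exposure that ended latest, transgene reads went against some labels, so transgene state could still differ within a labelled group. Its part in the slopes was not tested. Of 95 channel genes 2 passed, against 0.478% of 15688 genes. Kcnc1 rose by 1.70 log2 units per log2 unit of the index (SE 0.186, edgeR adjusted p = 0.000163).

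Kcnj13, an inward rectifier of transporting epithelia, had a slope of -3.23 (SE 0.675, edgeR adjusted p = 0.0344). The library labelled R2b of litter 1 at E10.25+24h held 195 of its counts, 7.30 CPM, and the other 7 pools of that exposure 0.0447 to 0.648 CPM. That library also had the lowest index of its group. By direction, genes with the next smallest p included Kcnj12, Kcnmb2, Kcnh1 and Scn9a, with positive slopes of 1.53 to 2.47. Negative slopes of -1.04 to -0.41 were those of Kcnk2, Kcnn2, Kcnq3, Kcnj8 and Kcnh6. Their edgeR adjusted p ran from 0.0708 to 0.815, so none of these passed. Of the genes called higher at both early exposures, Kcnh2 had a slope of 0.42 (edgeR adjusted p = 0.334) and Scn4a of 0.63 (edgeR adjusted p = 0.712). The others called at both had slopes from -0.12 (Cacna1d) to 0.42 (Kcns3), with edgeR adjusted p of 0.840 or more.

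The index mixes 2 genes that do not mark the same cells, and the parts gave different lists. With Neurog1 alone, the gene of newly specified neuroblasts, no channel gene passed, against 0.880% of all genes. With Tubb3 alone, 7 passed, among them Kcnmb2, Scn9a, Kcnh1, Scn3b, Kcnc1 and Kcnj12, all with positive slopes from 1.07 to 2.09, also against 0.880% of all genes. With the 13 neuroblast genes as the index, the same 7 and Kcnj13 passed, against 0.969%.

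Within their own groups, 2 pools stood apart in Tubb3. Tubb3 was at 120 CPM in the con pool of litter 4 at E9.25+24h, where the other con pools held 49.4 to 62.9 CPM. The library labelled R2b of litter 4 at E10.25+24h held 181 CPM, beside 54.0 to 76.1 CPM in the other 3. Stmn2, a growth cone protein, and Elavl4, a neuronal RNA-binding protein, stood at 31.3 and 25.4 CPM in the first pool and 58.7 and 42.2 CPM in the second, the highest of all 22 libraries.

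Channel genes known from differentiated neurons were high in those pools. Scn9a (Nav1.7), a sodium channel of sensory neurons, was at 2.62 CPM in the first against 0.431 to 0.596 CPM in the other con pools, and 10.9 CPM in the second against 1.03 to 1.35 CPM. Kcnmb2, which inactivates BK channels, was at 7.04 CPM against 0.372 to 1.44 CPM and at 14.9 CPM against 1.10 to 2.29 CPM. Cacna1e, which fell at E9.25+24h, was at 1.61 and 8.86 CPM, the highest of each group.

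Most genes called higher at both early exposures were not high in the first of these pools. In this con pool Kcnh2 was at 12.2, Kcna2 at 5.16, Kcns3 at 0.783, Scnn1b at 0.184 and Kcne1 at 2.16 CPM, all within or below the range of the other con pools, while Kcnq1, at 2.67 CPM, was above them. In the second pool, 5 of the 10 genes were the highest of their group. Cacna1a was at 22.4 CPM against 14.9 to 17.7 CPM and Cacna1d at 26.7 CPM against 19.6 to 20.8 CPM, and the others were Kcnip4, Kcnq1 and Scn4a. Without these 2 pools, Kcnc1 kept a slope of 1.42 (SE 0.207, edgeR adjusted p = 0.0071) on the index of Neurog1 and Tubb3 and was the only channel gene to pass, against 0.683% of all genes. On Tubb3 alone no channel gene passed, against 0.00638% of all genes, and the Kcnc1 slope was 1.24 (edgeR adjusted p = 0.473).

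**Figure D4:**
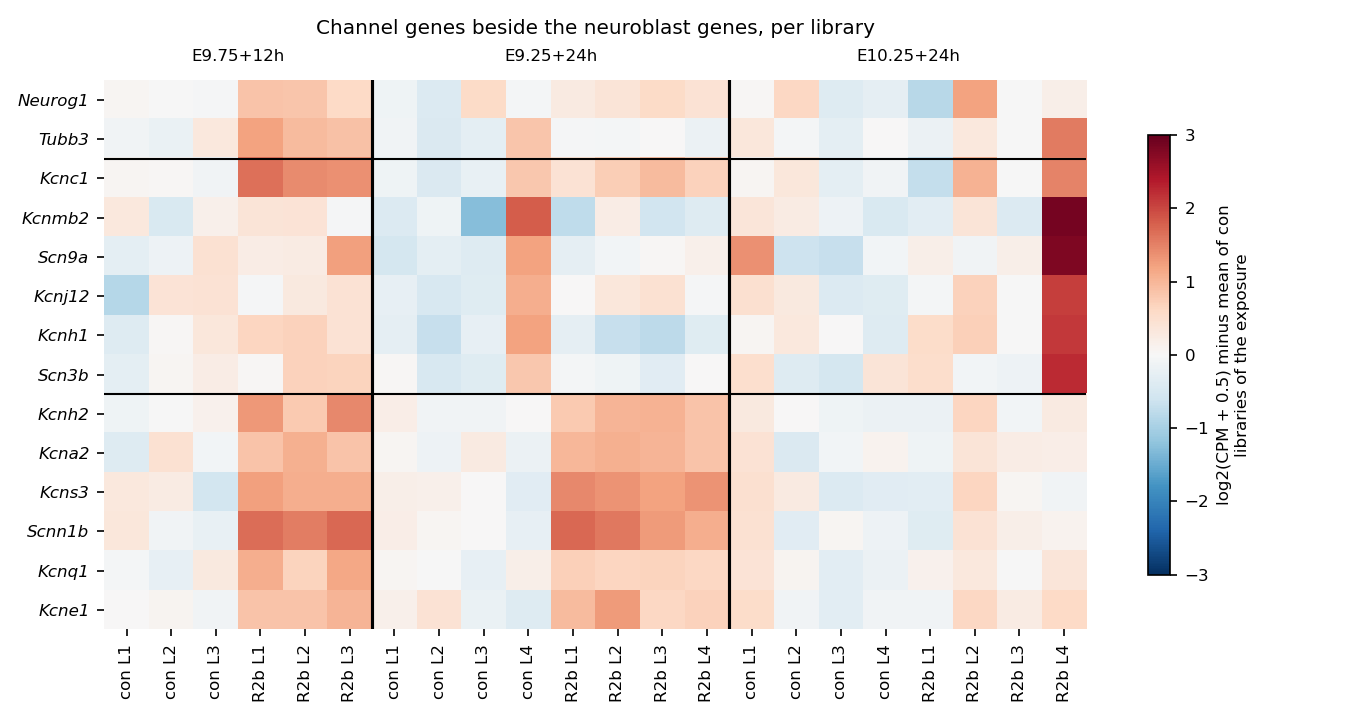
Log2(CPM + 0.5) of each library minus the mean of the con libraries of its exposure, for Neurog1 and Tubb3 (top), 6 channel genes with a slope on Tubb3 (middle) and genes called higher at both early exposures (bottom). Apart from Kcnc1, the middle block is reddest in R2b L4 of E10.25+24h (2.07 to 2.86), with 0.82 to 1.83 in con L4 of E9.25+24h. Kcnc1 is reddest in R2b L1 of E9.75+12h (1.65). The bottom block is reddest in the R2b libraries of the first 2 exposures.

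In the second way, the difference between the R2b and con pools of each litter was correlated with that of the index over 11 litters, for all 15688 genes. No channel gene and no gene passed after adjustment (0%, permutation test, 100000 resamples, two-sided), and 14 channel genes and 16.5% of all genes had an unadjusted p under 0.05. Kcnc1 had the highest r of the channel genes, 0.92 (permutation p = 0.00018, adjusted 0.098), with a rho of 0.90 (permutation p = 0.00032, adjusted 0.194). Without the 2 litters farthest from the median of the index, litter 4 of E9.25+24h and litter 1 of E10.25+24h, r was 0.73 (permutation p = 0.0271, adjusted 0.918). Centred within exposure, r was 0.92 (permutation p = 0.00595, adjusted 0.301).

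The differences of Kcnc1 in single litters were 1.68, 1.49 and 1.58 log2 units after 12 hours, and 0.60, 1.29, 1.28 and -0.11 with E9.25+24h. At E10.25+24h they were -1.10, 0.83, 0.37 and 1.86. The index differed by 1.07, 1.01 and 0.60, by 0.23, 0.60, 0.15 and -0.26, and by -0.74, 0.49, 0.35 and 1.01 in the same litters. Litters in which the index was lower in R2b were also those in which Kcnc1 was lower.

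Kcnh2, Kcns3 and Cacna1d, which were called at both early exposures, had weaker relations than Kcnc1. The r of the other genes called at both is not reported here, so these values do not stand for the set. Kcnh2 had an r of 0.56 (permutation p = 0.0725, adjusted 0.346), Kcns3 of 0.28 (permutation p = 0.401, adjusted 0.689) and Cacna1d of 0.11 (permutation p = 0.739, adjusted 0.895). Their rho were 0.37 (permutation p = 0.259, adjusted 0.766), -0.12 (permutation p = 0.732, adjusted 0.970) and -0.03 (permutation p = 0.946, adjusted 0.995). Without the same 2 litters, r was 0.21 for Kcnh2, -0.25 for Kcns3 and -0.17 for Cacna1d. Kcns3 differed by 2.07 log2 units in litter 4 of E9.25+24h, where the index was lower in R2b, and Kcnh2 by 0.87. Litter 1 of E10.25+24h lies at the low end of each of these relations, and there the transgene reads go against the labels.

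**Figure D5:**
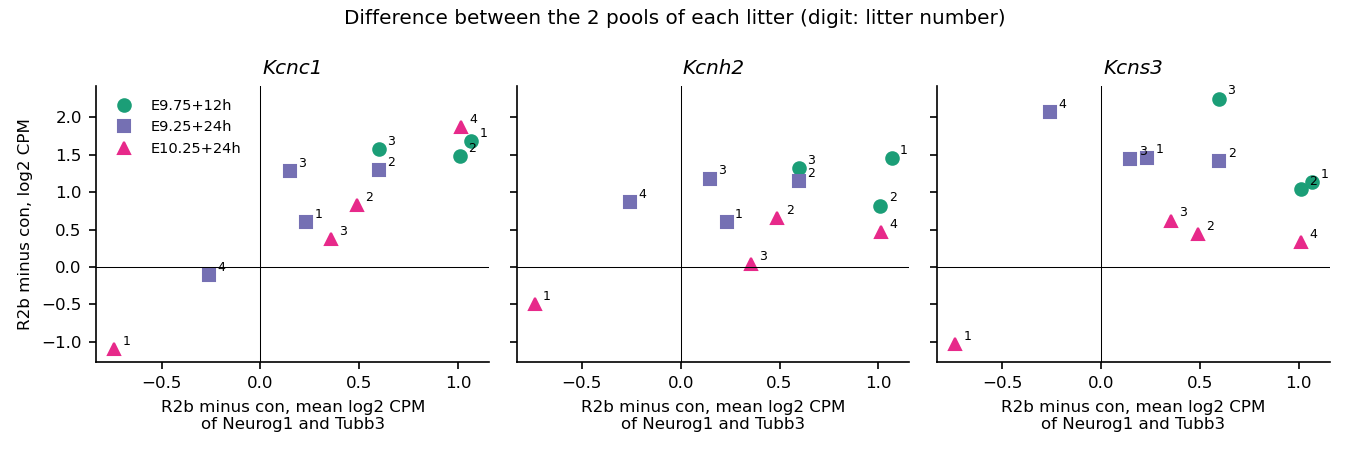
Difference between R2b and con pools of each litter (log2 CPM, vertical) against the difference of the Neurog1 and Tubb3 index (horizontal) for Kcnc1, Kcnh2 and Kcns3, with litter numbers beside the points. Kcnc1 climbs from -1.10 to 1.86 with the index, while Kcns3 reads 2.07 at a negative index in litter 4 of E9.25+24h.

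Kcnj10, a potassium channel of the later stria vascularis, read 0.356 to 2.47 CPM over the 22 libraries, and con and R2b overlapped at each exposure.

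The most abundant genes per length, Cacnb3 and Kcnk1, were called at no exposure in the fit without a litter block. Kcnk1 read 50.9 ± 0.722 CPM in con and 51.6 ± 1.69 CPM in R2b (SD, n = 3) at E9.75+12h, and Cacnb3 103 ± 7.06 and 126 ± 17.1 CPM. With the block Cacnb3 passed at E9.25+24h, by 0.16 (SE 0.0346, edgeR adjusted p = 0.00529). At E9.75+12h, Cacna1h read 64.7, 60.5 and 68.1 CPM in con and 106, 62.5 and 93.0 CPM in R2b, with an overlap in litter 2 (edgeR adjusted p = 0.0748). Kcnmb4, Scn8a, Scn2b, Cacna2d1 and Kcnj2 passed at no exposure, with or without the block. Kcnq3 did not pass without the block when all pools were used. At E9.25+24h its log2 fold change was -0.48 with the block (edgeR adjusted p = 0.0158) and -0.68 without the con pool of litter 4 (edgeR adjusted p = 0.0285).

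Other genes of ion transport were counted beside them from a list of cation channels, calcium stores and pumps, the sodium-potassium pump and chloride channels. Of 50 tested at E9.75+12h, 12 were called higher and 1 lower (26% together), against 20.0% of all genes. Of 48 at E9.25+24h, 10 were called higher and 3 lower (27.1% together), against 15.6% of all genes. Of 51 at E10.25+24h none was called, against 0% of all genes. The plasma membrane calcium pumps Atp2b2 and Atp2b4 rose by 0.88 and 0.93 at E9.75+12h. The calcium-activated channel Trpm4, the osmosensitive Trpv4 and the endolysosomal channel Tpcn1 were called higher at both early exposures, by 0.77, 0.78 and 0.55 and then by 0.50, 0.58 and 0.47. Median log2 fold changes of the list were 0.21, 0.08 and 0.06, where all genes stood at 0.01, -0.01 and 0.00.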

How the data were processed

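Genes were read from the deposited table of whole-number counts per Ensembl gene. The authors aligned reads to mm10 with Novoalign 2.08.03, per the submitters' processing notes, and the counter is not given in the sources used here. Of 24 samples, 22 have a column that matches their labels, litter 4 of E9.75+12h was not analysed here, and 2 columns that match no sample were not used. Symbols matched 15522 of 15736 genes.

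Within each exposure, genes were filtered (filterByExpr), scaled by TMM and tested by edgeR 4.0.16 (R 4.3.3) without a litter term, with Benjamini-Hochberg adjustment over all genes and a threshold of 0.05. SE is the log2 fold change divided by the square root of F. DESeq2 1.42.0 and the other alternatives appear in the closing section. The code recovered known changes in simulated counts. Slopes and log2 CPM used a prior count of 2.

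The labels say that 1 female gave both pools of a litter. Same-litter deviations correlated at -0.24 to -0.08 (E9.75+12h), 0.36 to 0.73 (E9.25+24h) and -0.10 to 0.37 (E10.25+24h).

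Genes named are, per exposure, the 10 called with the smallest p in each direction, the highest-level gene per role, and the 6 slopes with the smallest p in each direction. The members and lists were chosen with earlier results of these data known. Some genes that are counted are not reported here by name.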

Additional observations from a re-analysis of the deposited data

Results flagged for a closer look

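Single libraries stood apart from the other 3 of their group for 17 of 168 groups of 4 tested, by the size of the gap to the nearest library over the group's range (Dixon's test). Chance flags about 1 in 20 groups of genes chosen without regard to these values. Some genes here were named for slopes that rest on the same libraries, so the number flagged cannot be set against that rate. Of the 17, 8 lie in the con pool of litter 4 at E9.25+24h and the library labelled R2b of litter 4 at E10.25+24h. Those pools also hold the most Stmn2 and Elavl4 of all 22 libraries. The part of neuronal cells was not tested.

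In that con pool of E9.25+24h, Kcnh1 was at 4.65 CPM against 0.894 to 1.38 in the others, Kcnj12 at 1.75 CPM against 0.248 to 0.383, Kcnmb2 at 7.04 CPM, Scn9a at 2.62 CPM and Scn2a at 2.12 CPM against 1.53 to 1.59. Kcnk1 was low there, at 38.0 CPM against 58.6 to 62.7. In the library labelled R2b of litter 4 at E10.25+24h, Kcnmb2 was at 14.9 CPM and Scn9a at 10.9 CPM.

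In litter 1 of E10.25+24h, where transgene reads go against the labels, the library labelled con held 7.21 CPM of Kcnip4 against 1.77 to 2.52, 3.74 CPM of Scn4a against 1.76 to 1.93 and 3.78 CPM of Scn9a against 0.526 to 1.05. The library labelled R2b held 7.30 CPM of Kcnj13 against 0.0447 to 0.420.

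The remaining values were spread over other pools. Scnn1a was at 8.08 CPM in R2b of litter 2 at E10.25+24h against 4.79 to 5.32. In con of litter 4 there, Kcnt1 was at 0.619 CPM, or 13 counts. At E9.25+24h, Kcnip4 was at 2.33 CPM in R2b of litter 2, and in R2b of litter 3 Kcnmb4 was at 19.8 CPM against 21.4 to 21.7 and Scn2b at 10.29 CPM against 14.6 to 15.1.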

How the results depend on the processing

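At E9.75+12h the 18 calls became 10 with litter as a replicate block, 2 to 18 with a litter left out, and 2 to 17 with both. At E9.25+24h the 14 calls became 28 with the block, 5 to 14 with a litter left out, and 23 to 30 with both (24 without litter 2 and 27 without litter 3). At E10.25+24h the count was 0 to 4 with the block and a litter left out, and 4 without litter 1. The difference in effect between the early exposures gave 1 call with DESeq2 and 0 to 1 with a litter left out, and that between the 24-hour exposures gave 2 with DESeq2 and 0 to 2. Slopes on the index gave 2 calls, 0 with Neurog1 alone, 7 with Tubb3 alone, 8 with the neuroblast genes, 0 in the exposures ending at E10.25, 0 in con libraries alone and 1 to 6 with a litter left out. Chosen after seeing the data, leaving out R2b litter 4 of E10.25+24h gave 1, leaving out that pool and con litter 4 of E9.25+24h gave 1, and Tubb3 alone without them gave 0. The cause of these changes was not tested beyond the smaller number of libraries. DESeq2, filters and scaling left the counts at 14 to 23 for E9.75+12h and 12 to 18 for E9.25+24h. The share of all genes called also moved, at E9.25+24h from 2.15% without litter 1 to 40.6% with the block. The counts in this section are not set against all genes. Of 3674 values for single genes, 3473 kept direction and side of the threshold, 71 passed newly, 130 no longer passed, and none reversed. Low counts limit Kcnt1, Kcnip4 and Scnn1b, with 3 to 24 counts per early con library where called, and p-values measure the spread between litters only.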

Other observations

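Kcnj13, an inward rectifier of transporting epithelia, was below the filter at every exposure and had no test of R2b against con within an exposure. It had 0, 0 and 1 counts in con and 8, 9 and 2 counts in R2b pools after 12 hours (E9.75+12h). With E9.25+24h it had 3, 1, 0 and 0 counts in con and 6, 12, 10 and 7 counts in R2b. R2b pools were above con pools at both exposures, on counts too few to give a fold change. Kcnt1 was also below the filter at E9.25+24h, with 1, 6, 4 and 7 counts in con and 11, 9, 17 and 11 in R2b.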
